A study of Mus musculus with 2 samples.

Results

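Endothelial cells of dystrophic muscle were the 275 cells that the deposited clustering placed in cluster 16, out of 17813 mononucleated cells in 20 clusters. Of these, 105 came from the mdx library of 7156 cells and 170 from the cKO library of 10657 cells. Both groups were male mice on the mdx background, which carries a mutation in the dystrophin gene and models Duchenne muscular dystrophy. The paper's text puts their age at 3 months and its legend at 12 weeks. In cKO mice exons 2 and 3 of Spp1, the gene for osteopontin, were flanked by loxP sites and deleted by Cre under the Lyz2 promoter, a promoter of myeloid cells. The genotype field of the control library reads as wild type, whereas its title and library name say mdx. Limb and diaphragm muscles were pooled and digested, and red blood cells, debris and dead cells were removed before capture, so the cells are those that survived this isolation.

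Endothelial cells line the blood vessels, and in skeletal muscle most of them belong to the capillaries that run along the fibers. They are recognised by Cdh5, which encodes the cadherin of their junctions, by Pecam1, which encodes CD31, and by Kdr, which encodes the main receptor for vascular endothelial growth factor. The deposited table holds 1 line per cell without counts for single genes, so these 3 markers could not be checked here. The cluster takes its name from its cell numbers, which are those the study gives for endothelial cells in both genotypes, and this equality is how the cluster was chosen and not a result. What the table does hold for each cell is the number of unique molecular identifiers (UMIs, each tagging 1 captured transcript), the number of genes detected, the mitochondrial percent of UMIs, and S and G2M scores for genes of DNA synthesis and of division.

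Each genotype gave 1 library, and the 3 mice behind each cannot be told apart. No test was therefore run, and differences between mice or preparations cannot be told apart from those between genotypes. Intervals on shares are exact (Clopper-Pearson) 95% intervals over cells and cover counting error only. The 2 libraries shared 20 cell barcodes, none of them among the endothelial cells. The non-immune clusters used for comparison were stromal clusters 0, 2, 6 and 17, muscle stem cell cluster 18 and smooth muscle cluster 19, with 2184 mdx and 3160 cKO cells. Cluster 6 had 1277 cells in mdx and 43 in cKO. Red blood cell cluster 14, with 187 mdx and 163 cKO cells still present after the removal of red blood cells, was left out of this comparison.

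Set against the non-immune cells without red blood cells, the frequency of endothelial cells did not differ between the libraries beyond counting error. Of these 2289 cells in mdx they were 4.59% (95% interval 3.77 to 5.53), and of the 3330 in cKO 5.11% (4.38 to 5.91), for a cKO to mdx ratio of 1.11 (0.878 to 1.41). With red blood cell cluster 14 counted as well, the ratio was 1.15 (0.905 to 1.46). With stromal cluster 6 out of the count, mdx had 10.4% (8.56 to 12.4) and cKO 5.17% (4.44 to 5.98), with a ratio of 0.498 (0.395 to 0.629). The direction of the ratio thus depended on whether cluster 6 was counted. Among clusters 16, 17, 18 and 19, mdx had 44.1% (37.7 to 50.7) and cKO 45.1% (39.99 to 50.3) endothelial cells. Among clusters 16, 18 and 19, mdx had 66.5% (58.5 to 73.8) and cKO 55.7% (49.97 to 61.4), with a ratio of 0.839 (0.722 to 0.974). Both of these narrower denominators were chosen after seeing the data. A share among cells does not give the number of endothelial cells in the muscle.

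Endothelial cells from cKO muscle carried more UMIs than those from mdx muscle. In mdx they ranged from 559 to 18724 UMIs, with a lower quartile of 1513, a median of 3595 and an upper quartile of 6111. In cKO they ranged from 531 to 48231 UMIs, with a lower quartile of 2659, a median of 5344 and an upper quartile of 9375. The 2 ranges overlapped over nearly their whole length. The ratio of cKO to mdx was 1.18 at the 5th percentile, 1.76 at the lower quartile, 1.49 at the median and 1.53 at the upper quartile, but 1.13 at the 90th percentile and 1.09 at the 95th. Of these percentiles the ratio was thus highest at the lower quartile and closer to 1 at both ends. Together the endothelial cells held 502775 UMIs in mdx and 1109898 in cKO, or 1.16% and 1.87% of all UMIs of their library.

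**Figure D1:**
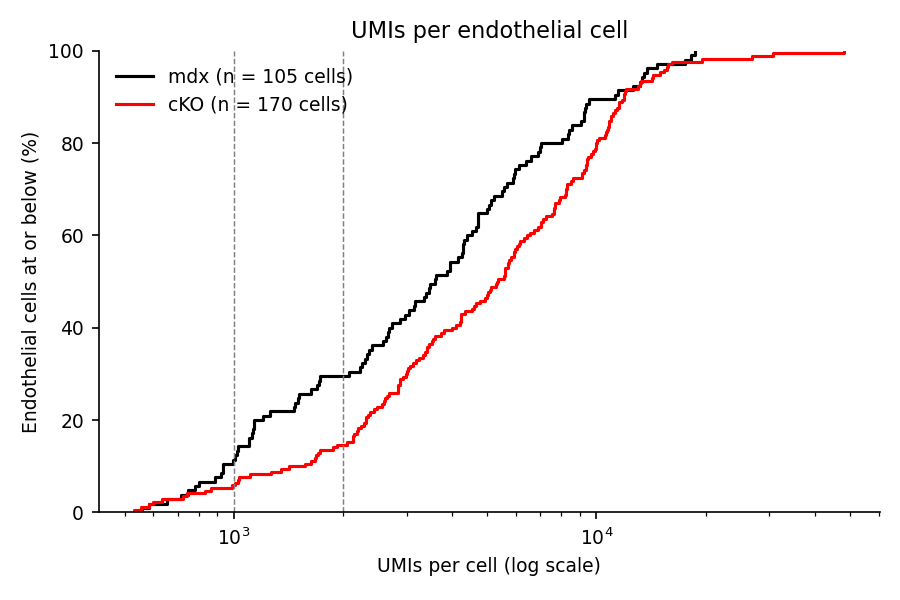
Percent of endothelial cells (y axis) at or below each number of UMIs per cell (x axis, log scale) in mdx (black, 105 cells) and cKO (red, 170 cells), with dashed lines at 1000 and 2000 UMIs. The curves start together near 500 UMIs, are 14.8 percentage points apart at 2000 UMIs, and run close again at the 90th and 95th percentiles.

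The direction of this difference was not shared by the large stromal clusters. The cKO to mdx ratio of median UMIs was 0.689 in cluster 0, 0.692 in cluster 2 and 0.410 in cluster 6. It was 1.46 in stromal cluster 17, 1.50 in muscle stem cells and 1.08 in smooth muscle cells, against 1.49 in endothelial cells. Endothelial cells, stromal cluster 17, muscle stem cells and smooth muscle cells thus had the higher median in cKO, smooth muscle cells on 21 mdx cells. Stromal clusters 0, 2 and 6 had it in mdx, cluster 6 on 43 cKO cells. Red blood cell cluster 14, which was left out of the comparison, had a ratio of 0.543. Divided by the mean of the 6 other non-immune medians of its own library, the endothelial median was 0.730 in mdx and 1.21 in cKO. By median UMIs endothelial cells held rank 4 of the 7 non-immune clusters in both libraries.

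Endothelial cells also varied widely in UMIs within each library. Their upper quartile was 4.04 times the lower in mdx, above the 1.50 to 3.32 of the other 6 clusters, and 3.53 times in cKO, where muscle stem cells stood higher at 6.02 and the remaining 5 clusters lower. Stromal cluster 2 was the most even in both libraries, at 1.50 in mdx and 1.72 in cKO.

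**Figure D2:**
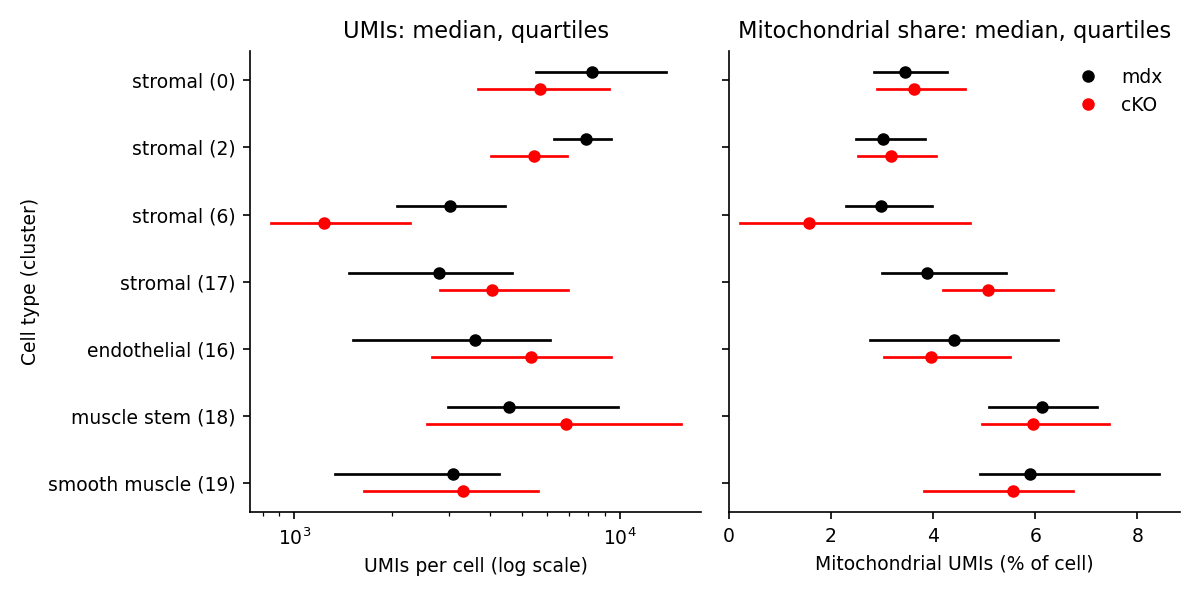
Number of UMIs in a cell (left, x axis, log scale) and mitochondrial percent of UMIs (right, x axis) for the 7 non-immune clusters (y axis), with medians over cells as points and the lower to upper quartile as bars (black, mdx; red, cKO). Endothelial cells have medians of 3595 and 5344 UMIs and of 4.41% and 3.95% mitochondrial UMIs in mdx and cKO, and their mitochondrial quartiles in mdx lie 3.69 percentage points apart.

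A tail of endothelial cells with few UMIs was present in both libraries. In mdx 12 of 105 cells had under 1000 UMIs (11.4%, 6.05 to 19.1), and in cKO 10 of 170 did (5.88%, 2.86 to 10.6). The ratio of these shares was 0.515 with an interval of 0.231 to 1.15, so the difference was within counting error at this limit. Under 750 UMIs the counts were 5 and 7 cells, a ratio of 0.865 (0.282 to 2.65). The gap opened at higher limits. Under 1500 UMIs there were 25 mdx cells (23.8%, 16.04 to 33.1) and 17 cKO cells (10.0%, 5.93 to 15.5), a ratio of 0.420 (0.238 to 0.740). Under 2000 UMIs there were 31 (29.5%, 21.0 to 39.2) and 25 (14.7%, 9.75 to 20.9), a ratio of 0.498 (0.312 to 0.795). From 1000 to 2000 UMIs there were 19 mdx cells (18.1%) and 15 cKO cells (8.82%). At the other end, from 8000 to 16000 UMIs, there were 18 mdx cells (17.1%) and 49 cKO cells (28.8%). The table holds no cell under 501 UMIs, so the lowest end of the tail was not seen.

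The tail was also set against the rest of the non-immune cells, most of which are stromal cells of clusters 0, 2 and 6. Over the 6 other clusters together, the share under 1000 UMIs was 3.34% for mdx (2.63 to 4.18) and 2.50% for cKO (1.98 to 3.11). The endothelial interval lay above this in mdx, while in cKO the 2 intervals overlapped. Smooth muscle cells had 3 of 21 cells in mdx (14.3%, 3.05 to 36.3), near the endothelial 11.4%. In cKO they had 8 of 54 (14.8%, 6.62 to 27.1), above the endothelial 5.88%, with overlapping intervals. Muscle stem cells had 0 of 32 cells in mdx, which allows a share of up to 9.38% by a limit of 3 counts and 10.9% by the exact interval, and 2 of 81 in cKO (2.47%, 0.3004 to 8.64). Stromal cluster 17 had 6.25% in mdx (2.06 to 13.99) and 1.39% in cKO (0.0352 to 7.50), and under 2000 UMIs 36.2% (25.8 to 47.8) and 9.72% (3.999 to 19.01). The 43 cKO cells of cluster 6 had the highest share under 1000 UMIs, at 41.9% (27.0 to 57.9).

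The cells of the tail held few genes and a wide range of mitochondrial percent. In mdx the 12 cells under 1000 UMIs had 373 to 604 genes and 0.172% to 9.63% mitochondrial UMIs, with a median of 5.13%. In cKO the 10 cells had 293 to 554 genes and 0% to 8.65% mitochondrial UMIs, with a median of 3.05%. The medians of the remaining endothelial cells were 4.41% in mdx and 3.997% in cKO. The low tail thus lay above the other cells in mdx and below them in cKO, on 12 and 10 cells. Cells with hardly any mitochondrial UMIs were found at this end as well: 3 of the 4 cKO endothelial cells under 1% had under 1000 UMIs, and the other had 1031. In mdx 1 of the 2 endothelial cells under 1% had under 1000 UMIs, and the other had 1630.

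More genes were detected per endothelial cell in cKO. The median was 1586 genes in mdx, with quartiles of 883 and 2389, and 2149 in cKO, with quartiles of 1358 and 3165. The ratio of medians was 1.35. The number of genes followed the number of UMIs closely in both libraries, with a rank correlation over cells of 0.99 in each. This describes cells of 1 library, and UMIs and genes come from the same transcripts. Per 1000 UMIs the order was the other way, with a median of 447 genes in mdx and 408 in cKO, since further UMIs of a cell add fewer new genes.

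Among cells of similar UMIs the endothelial cells of both libraries differed less in genes. From 2000 to 4000 UMIs the median was 1365 genes over 26 mdx cells and 1390 over 42 cKO cells. From 4000 to 8000 UMIs it was 2054 over 27 mdx cells and 2233 over 49 cKO cells, with median UMIs of 5117 and 5720 in this range. The cKO to mdx ratio of median genes was 0.905 under 1000 UMIs and 1.09 from 1000 to 2000. It was 1.12 from 8000 to 16000 UMIs and 1.23 from 16000, the last on 3 mdx and 5 cKO cells. Median UMIs differed in the same direction as genes within each of these ranges except that from 2000 to 4000 UMIs. There they were 2909.5 in mdx and 2837 in cKO, while genes were slightly higher in cKO. With both libraries weighted alike over 6 ranges of UMIs, the mean was 1985 genes for mdx and 2138 for cKO, a ratio of 1.08, while mean UMIs still differed by a ratio of 1.08 within those ranges. A curve of genes on UMIs, chosen after seeing the data, gave a ratio of 1.03 at equal UMIs. The same curve gave 1.05 in stromal cluster 0, 1.06 in cluster 2, 0.980 in cluster 6, 1.01 in cluster 17, 1.04 in muscle stem cells and 1.02 in smooth muscle cells. Endothelial cells stood within the range of these clusters, and most of their difference in genes went with their difference in UMIs.

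**Figure D3:**
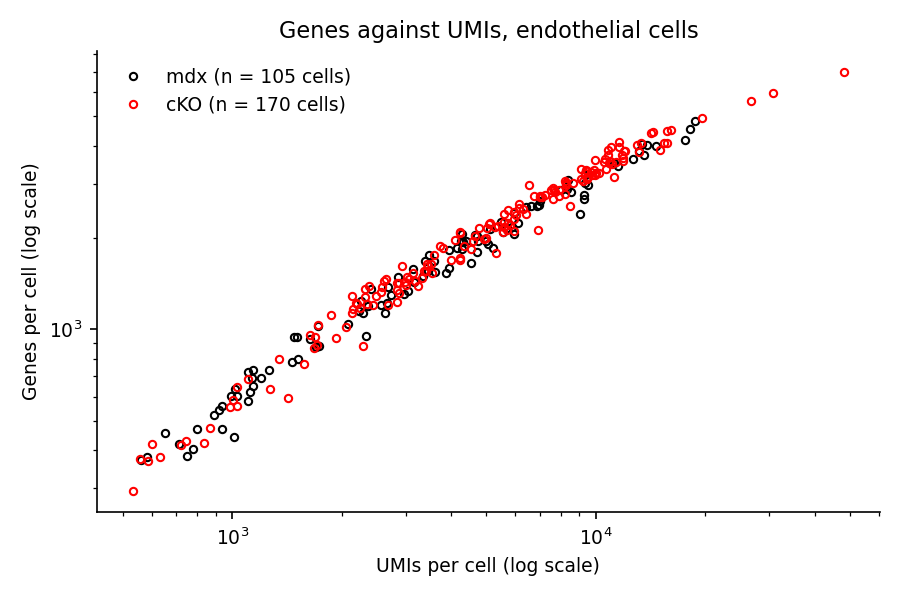
Genes detected per endothelial cell (y axis, log scale) against UMIs per cell (x axis, log scale), where each circle is 1 cell of mdx (black, 105 cells) or cKO (red, 170 cells). Cells of both libraries lie along 1 narrow band, at 373 to 604 genes in mdx and 293 to 554 in cKO under 1000 UMIs, and the richest cKO cell reaches 7011 genes.

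The richest cells were few in both libraries. There were 3 mdx cells (2.86%, 0.593 to 8.12) and 5 cKO cells (2.94%, 0.962 to 6.73) with 16000 UMIs or more. The 3 mdx cells held 17550, 18183 and 18724 UMIs, and the 5 cKO cells held 16122, 19599, 26768, 30719 and 48231. Of the cKO cells, 4 thus lay above the richest mdx cell. The cell with 48231 UMIs held 7011 genes and 3.80% mitochondrial UMIs, and its S and G2M scores were both below 0. Doublets were not called, and a droplet with more than 1 cell cannot be recognised without counts per gene.

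Within the limits that the methods state, 200 to 1800 genes per cell, lay 58 mdx endothelial cells (55.2%, 45.2 to 65.0) and 69 cKO endothelial cells (40.6%, 33.1 to 48.4). The limits did not describe the deposited cells, and applying them, a choice made after seeing the data, left 47 mdx and 101 cKO endothelial cells aside. Medians of the cells within them were 1705 UMIs for mdx and 2318 for cKO, a ratio of 1.36. The higher UMIs in cKO were thus also seen among cells with few genes.

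The mitochondrial percent reflects how much of the captured RNA is mitochondrial, and it rises in cells that have lost cytoplasmic RNA and in cells with many mitochondria. Endothelial cells had a median of 4.41% in mdx, with quartiles of 2.75% and 6.44%, and of 3.95% in cKO, with quartiles of 3.04% and 5.497%. The medians differed by -0.46 percentage points (cKO minus mdx), less than the distance between quartiles in either library, 3.69 points in mdx and 2.46 in cKO. Among the non-immune clusters the endothelial median held rank 3 in mdx and rank 4 in cKO, below muscle stem cells (6.13% and 5.96%) and smooth muscle cells (5.89% and 5.57%) and above the large stromal clusters 0 and 2 (3.02% to 3.62%). In mdx the spread between endothelial quartiles was the widest of the 7 clusters, next to smooth muscle cells at 3.51 points.

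In absolute numbers, mitochondrial UMIs were higher in cKO endothelial cells. An mdx cell held a median of 118 mitochondrial UMIs and a cKO cell 213, a ratio of 1.81, beside the ratio of 1.49 for all UMIs. The means over cells were 230 and 284, a ratio of 1.24, beside 1.36 for the means of all UMIs. With UMIs matched the means were 269 and 263, a ratio of 0.978. Mean mitochondrial percents were 4.71% and 4.48% with UMIs matched, against 4.73% and 4.46% without. The number of mitochondrial UMIs thus moved with the number of UMIs, and matching changed the mean percents little.

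Endothelial cells near the upper limit of mitochondrial percent were frequent. No deposited cell exceeds 9.99%, although the methods state a limit of 20%. Above 8% lay 13 mdx endothelial cells (12.4%, 6.76 to 20.2) and 14 cKO endothelial cells (8.24%, 4.58 to 13.4), a ratio of 0.665 (0.326 to 1.36). In the 6 other non-immune clusters together mdx had 2.24% (1.66 to 2.96) and cKO 2.72% (2.18 to 3.35), below the endothelial interval in both libraries. Muscle stem cells and smooth muscle cells also had high shares, of 18.8% and 33.3% in mdx and of 14.8% and 9.26% in cKO. The stromal clusters 0 and 2 had 1.12% to 2.24%, cluster 6 had 1.57% in mdx and 13.95% of its 43 cells in cKO, and cluster 17 had 8.75% and 4.17%. Cells with a high percent lay both in the low tail and above it: under 1000 UMIs were 3 of 13 such cells in mdx and 2 of 14 in cKO. They made up 3 of the 12 mdx cells under 1000 UMIs and 10 of the 93 others. In cKO they made up 2 of 10 and 12 of 160. Their share was thus higher in the tail in both libraries, on few cells. The rank correlation of UMIs with mitochondrial percent over endothelial cells was -0.057 in mdx and -2.9e-04 in cKO.

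**Figure D4:**
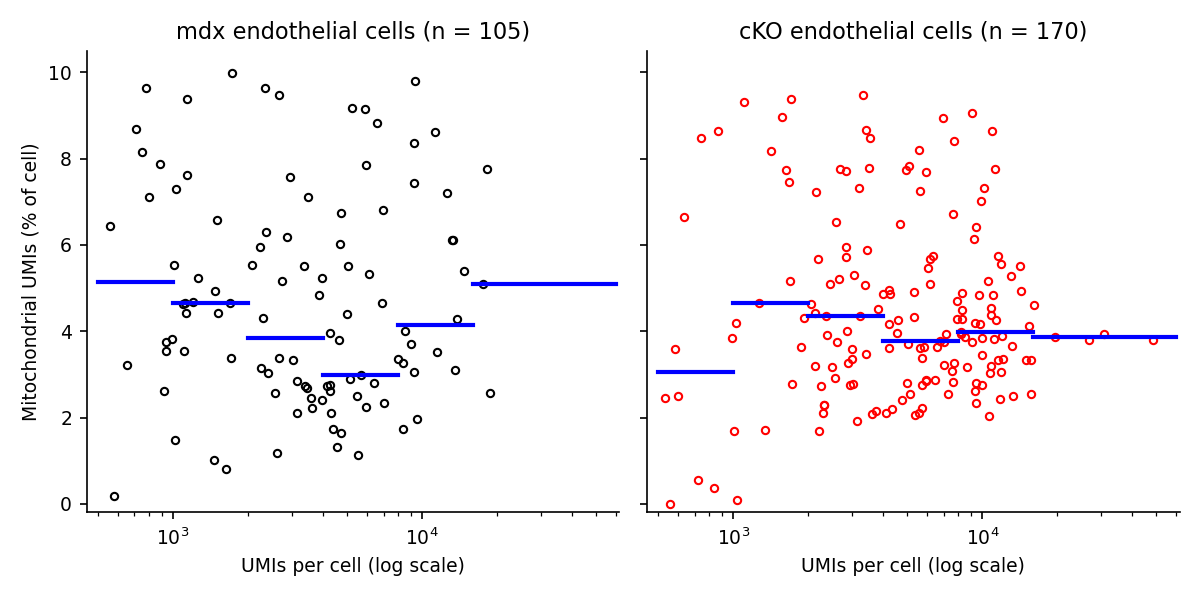
Mitochondrial percent of UMIs (y axis) by UMIs (x axis, log scale) of single endothelial cells (circles) from mdx (left, black) and cKO (right, red), where blue lines are medians over cells within ranges of UMIs. The mdx medians fall from 5.13% under 1000 UMIs to 2.99% from 4000 to 8000 UMIs and lie at 4.15% and 5.09% above, whereas the cKO medians stay between 3.05% and 4.66%.

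By UMI range the mdx medians were lowest in the middle. They were 5.13%, 4.66%, 3.84% and 2.99% in the ranges from 500, 1000, 2000 and 4000 UMIs, and 4.15% and 5.09% in the ranges from 8000 and 16000, on 12, 19, 26, 27, 18 and 3 cells. The cKO medians were 3.05%, 4.66%, 4.35%, 3.76%, 3.99% and 3.86% on 10, 15, 42, 49, 49 and 5 cells. The ranges of single cells overlapped between the libraries in every bin.

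Few endothelial cells scored as dividing. Scores of this kind commonly compare genes of a cell cycle phase with control genes, but the calculation of the deposited scores is not described. Cells with both scores below 0 were called G1 in the table. Median S scores were -0.058 in mdx and -0.051 in cKO, and median G2M scores were -0.084 and -0.083. Above 0.2 on either score there was no mdx endothelial cell, 0 of 105, which allows a share of up to 2.86% by a limit of 3 counts and 3.45% by the exact interval, and there were 4 cKO cells (2.35%, 0.645 to 5.91). At this depth the libraries could not be told apart on dividing endothelial cells. Over the other non-immune clusters this limit was passed by 1.37% in mdx (0.929 to 1.96) and 3.92% in cKO (3.27 to 4.66). Most of these cells, 21 of 30 in mdx and 83 of 124 in cKO, were from stromal cluster 0. Stromal cluster 6 made up 1277 of the 2184 mdx cells compared and 43 of the 3160 cKO cells. It had 2 cells above the limit in mdx and 5 in cKO. The pooled shares of the 2 libraries thus come from unlike mixes of clusters. The highest share within a cluster was that of muscle stem cells, with 4 of 32 and 22 of 81.

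The 4 cKO cells were unlike each other. One had 10686 UMIs, 3357 genes and a G2M score of 1.09 with an S score of -0.069. Another had 26768 UMIs, 5615 genes, an S score of 0.436 and a G2M score of 0.215. The next had 5558 UMIs, 8.20% mitochondrial UMIs and an S score of 0.207, close to the limit. The last had 1031 UMIs, 645 genes, a G2M score of 0.960 and 1 mitochondrial UMI (0.097%). This last cell thus joined a high score with the near absence of mitochondrial UMIs that was seen in some cells of the low tail.

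Phase calls gave much larger shares than the scores above 0.2. The table calls 27 mdx endothelial cells S or G2M (25.7%, 17.7 to 35.2) and 34 cKO endothelial cells (20%, 14.3 to 26.8), a ratio of 0.778 (0.4995 to 1.21). Most were S calls, 20 in mdx and 25 in cKO. The highest S score of any mdx endothelial cell was 0.065 and the highest G2M score 0.042, so every call in mdx rested on a score just above 0. Phase calls alone therefore do not show division.

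The calls moved with UMIs. In mdx 8 of 12 endothelial cells under 1000 UMIs were called S or G2M (66.7%), against 7 of 19, 6 of 26, 4 of 27, 2 of 18 and 0 of 3 in the successive ranges. In cKO the counts were 3 of 10, 4 of 15, 9 of 42, 13 of 49, 4 of 49 and 1 of 5. Over endothelial cells the rank correlation of UMIs with the S score was -0.51 in mdx and -0.23 in cKO, and with the G2M score -0.42 and -0.39. Muscle stem cells were the exception among the non-immune clusters outside cluster 6, with positive correlations of UMIs with both scores in both libraries, 0.14 to 0.43. With UMIs matched, 22.4% of mdx and 20.9% of cKO endothelial cells were called S or G2M. The scores could not be recomputed at 1 depth without counts per gene.

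**Figure D5:**
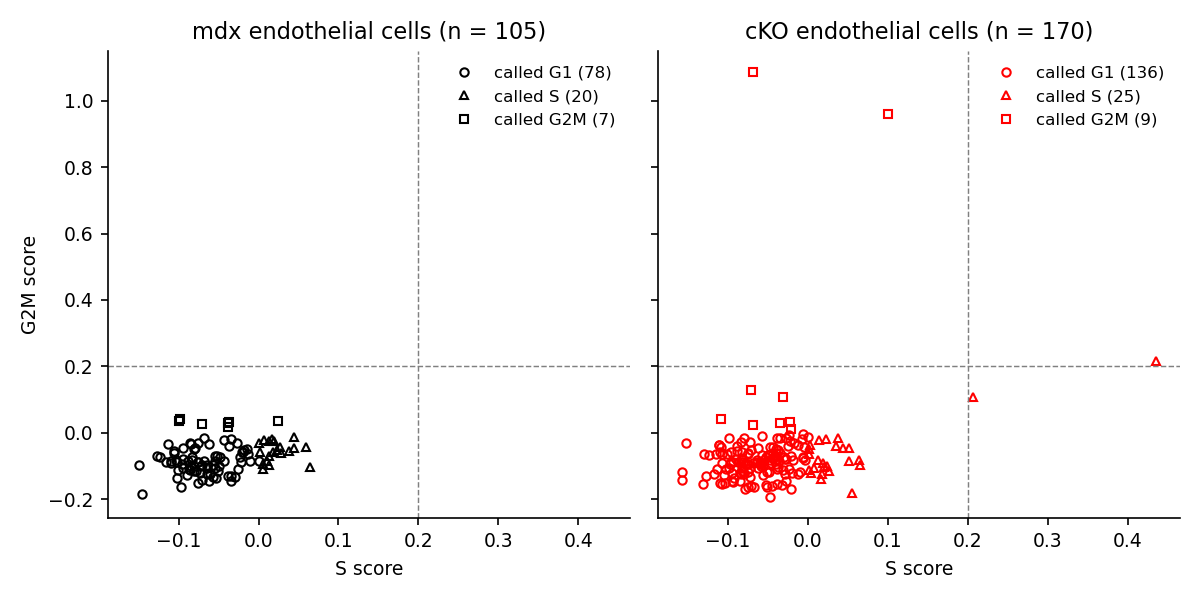
G2M score (y axis) against S score (x axis) for each endothelial cell of mdx (left, black) and cKO (right, red), where circles, triangles and squares are cells called G1, S and G2M and dashed lines mark 0.2 on each score. All 105 mdx cells lie below both lines, and 4 of 170 cKO cells lie beyond at least 1 of them.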

How the data were processed

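Mononucleated cells of mdx and cKO muscle were profiled by 10x Genomics 3′ single cell RNA-seq, with 1 library per genotype. According to the submitters' processing notes Cell Ranger 7 was run on mm10, and the authors then clustered the cells in Seurat at a resolution of 0.5. The deposited UMI and gene counts are raw whole numbers per cell, the mitochondrial share was deposited as a fraction of UMIs and is given here in percent, and each cell cycle phase has a deposited score whose calculation the methods do not describe. Libraries were assigned by their names, read as Cre-negative and Cre-positive, and by the paper's cell totals.

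All deposited cells were used, totalling 43185486 UMIs in mdx and 59240298 in cKO. Quartiles, exact shares, log intervals of ratios, means weighted alike over UMI ranges, and a least squares curve of ln genes on ln UMIs, its square and the library were obtained with SciPy 1.17.1, NumPy 2.4.6 and pandas 2.3.3 (Python 3.11.15; figures, Matplotlib 3.10.9), and tested on simulated data. No gene was named with a value, by the rule set for a table without expression values. The cluster and limits were chosen with earlier results of these data known. Cluster numbers come from expression in the same cells, so the measures are not independent of the clustering.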

Additional observations from a re-analysis of the deposited data

Results flagged for a closer look

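These 3 results were set apart because endothelial cells and some of the 6 other non-immune clusters moved in opposite directions between the libraries. The difference was not tested, since each genotype gave 1 library. The median UMIs of endothelial cells gave a cKO to mdx ratio of 1.49, while clusters 0, 2 and 6 gave 0.689, 0.692 and 0.410 and clusters 17, 18 and 19 gave 1.46, 1.50 and 1.08. For median genes the ratio was 1.35 in endothelial cells and 0.812, 0.820 and 0.480 in clusters 0, 2 and 6, against 1.36, 1.29 and 1.05 in clusters 17, 18 and 19. The median mitochondrial percent differed by -0.46 percentage points (cKO minus mdx) in endothelial cells, less than the distance between the quartiles of either library. It differed by 0.16, 0.16 and 1.19 points in clusters 0, 2 and 17, and by -1.41, -0.17 and -0.33 points in clusters 6, 18 and 19. What sets these directions was not tested.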

How the results depend on the processing

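Of 52 values under other settings, 45 stayed within the 95% interval of the value as reported and 7 did not, where the interval of a median came from the binomial ranks of its cells. Without stromal cluster 6 the ratio of endothelial shares was 0.498 in place of 1.11, and among clusters 16, 18 and 19 it was 0.839, a setting added once the values were seen. The low tail was 4.76%, 23.8% and 29.5% of mdx endothelial cells at limits of 750, 1500 and 2000 UMIs, against 11.4% at 1000, and 14.7% of cKO cells at 2000, against 5.88%. A limit that includes more UMIs holds more cells by construction. The curve of genes on UMIs gave 1.03 in place of 1.35, because it compares cells at equal UMIs. The UMI ratio stayed above 1 under every setting run, from 1.33 with cells of at least 1000 UMIs to 1.65 relative to the other non-immune clusters. The mitochondrial difference stayed below 0 under every setting run, from -0.46 to -0.23. The interval used to judge these settings, -1.24 to 0.51, included 0 and describes cells, not mice. The order of medians also varied between UMI ranges. The cKO median was the lower under 1000 UMIs (3.05% against 5.13%) and the higher from 2000 to 4000 (4.35% against 3.84%). No paired analysis was possible because each genotype gave 1 library, and no replicate could be left out. The shares within endothelial cells rest on 105 mdx and 170 cKO cells, which limits their precision.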
